A study of Mus musculus with 6 samples.

Results

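Mitochondrially encoded genes are the small set of genes carried by the mitochondrial chromosome itself. They were taken from the deposited gene table as every gene whose symbol starts with mt-, which gave 37 of 24182 genes. There were 13 mRNA genes, 2 rRNA genes and 22 tRNA genes. The samples were cultures of mouse T cells labelled as Th17 cells, the CD4 helper cells that make interleukin 17. The 3 Sirt2 KO libraries came from Th17 cells in which Sirt2, the gene of a NAD-dependent deacetylase, had been targeted with CRISPR/Cas9, and the 3 Sirt2 WT libraries came from control Th17 cells. All 6 were given antibodies against CD3 (0.5 μg/mL) and CD28 (1 μg/mL) over 72 hours before total RNA was taken, and the treatment label reads untreated in both groups. The mouse strain, age and number of animals, the guide used, whether KO cells were a clone or a mixed population, and the treatment of the control cells with a guide of their own are not stated by the labels. Since no label ties a replicate to a culture or animal of its own, the p-values cover only library-to-library spread, part of which may be technical.

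Mitochondrial DNA is a small double-stranded circle present in many copies per cell. Its strands are named heavy and light for their base composition, and each is transcribed as a long precursor from its own promoter by the RNA polymerase Polrmt with Tfam and Tfb2m. The tRNAs lie between the other genes and are cut out of the precursor at both ends, which frees the mRNAs and rRNAs beside them. The mRNAs encode membrane subunits of the respiratory chain complexes I, III and IV and of ATP synthase, complex V, whose other subunits come from nuclear genes. The rRNAs and tRNAs serve the mitochondrial ribosome, which translates only these mRNAs. T cells increase mitochondrial mass and respiration after activation.

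Of the 37 genes, 28 lie on the plus strand of the reference and are transcribed from the heavy strand as template. The 9 genes on the minus strand, transcribed from the light strand, are mt-Nd6 and 8 tRNA genes. The genes are packed end to end on the chromosome (MT, GRCm38). mt-Atp8 (7766 to 7969) shares 43 bases with mt-Atp6 (7927 to 8607), mt-Nd4l shares 7 bases with mt-Nd4, and mt-Nd5 (plus strand, 11742 to 13565) shares 14 bases with mt-Nd6 (minus strand, 13552 to 14070). Of the mRNA genes, 10 end in a full stop codon, and 3, mt-Co3, mt-Nd4 and mt-Cytb, end on a lone T that the poly(A) tail completes to a stop codon. mt-Nd6 holds 28.1% G and 5.97% C in its sense strand, while the plus-strand mRNA genes hold 5.88 to 16.1% G and 22.1 to 30.0% C.

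The sequences below, taken from the GENCODE M21 transcripts of GRCm38, show bases that neighbouring genes share. In the first, the 43 bases shared by mt-Atp8 and mt-Atp6 (plus strand, MT:7927-7969), capitals mark the start codon of mt-Atp6 inside the reading frame of mt-Atp8. In the second, the 14 bases that end both mt-Nd5 and mt-Nd6 (shown on the plus strand, MT:13552-13565), capitals mark the stop codon of mt-Nd5. A read over these bases cannot be given to either gene from its sequence alone.
mt-Atp8 and mt-Atp6 shared bases: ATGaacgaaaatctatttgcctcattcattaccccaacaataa
mt-Nd5 and mt-Nd6 shared bases: ttaatctcgagTAA

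The next sequences are 6 tRNA genes in sense, written as DNA, with the anticodon in capitals. mt-Tl1, mt-Ts1, mt-Tw and mt-Tc are shown because they had every KO value above every WT value, as described further on. mt-Tf and mt-Ty are shown with mt-Tw and mt-Ts1 because these 4 are the known substrates of Cdk5rap1, an enzyme that modifies the adenosine directly after the anticodon. That adenosine follows the capitals in all 4 genes.
mt-Tl1 (leucine, plus strand, MT:2676-2750): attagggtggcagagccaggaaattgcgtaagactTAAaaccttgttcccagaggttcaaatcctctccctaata
mt-Ts1 (serine, minus strand, MT:6870-6938): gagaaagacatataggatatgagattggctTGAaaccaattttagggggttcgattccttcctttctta
mt-Tw (tryptophan, plus strand, MT:4950-5016): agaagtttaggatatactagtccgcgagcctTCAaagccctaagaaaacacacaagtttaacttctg
mt-Tc (cysteine, minus strand, MT:5192-5257): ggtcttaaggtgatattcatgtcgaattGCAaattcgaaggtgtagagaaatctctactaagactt
mt-Tf (phenylalanine, plus strand, MT:1-68): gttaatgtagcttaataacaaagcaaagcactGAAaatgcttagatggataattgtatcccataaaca
mt-Ty (tyrosine, minus strand, MT:5260-5326): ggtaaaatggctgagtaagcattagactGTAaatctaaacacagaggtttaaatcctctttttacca

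Values are FPKM, fragments scaled to gene length and to the library total, as the authors deposited them. They hold no counts, so the depth behind a value is unknown. Sirt2 itself had 11.2, 13.5 and 10.9 FPKM in KO libraries and 20.7, 19.9 and 21.9 FPKM in WT libraries. KO replicate 3 stood apart from its group. Across the genes tested its log2(FPKM + 1) correlated at 0.981 and 0.979 with the other KO libraries and at about 0.990 with each WT library. The counts over all mitochondrial genes, the class and strand summaries and the calls are therefore also given without that library.

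The mitochondrial genes as a group made up 5.26, 5.93 and 5.57% of all gene FPKM in KO libraries, against 5.49, 5.06 and 5.02% in WT libraries. KO replicate 2 was the highest, and KO replicate 1 lay below WT replicate 1, so the groups overlapped. Weighted by gene length, which brings the share closer to a share of fragments, they made up 1.53, 1.75 and 1.60% in KO and 1.58, 1.46 and 1.46% in WT libraries, again with overlap. In a bulk sample, fewer cells of a type and less RNA per cell cannot be told apart, and neither can copy number of the mitochondrial genome, which was not measured.

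KO was compared with WT by limma on log2(FPKM + 1) over all 10873 genes that reached 1 FPKM in at least 3 libraries, and a gene was called at a Benjamini-Hochberg adjusted p under 0.05. Of the 37 mitochondrial genes, 33 were tested, namely all mRNA and rRNA genes and 18 tRNA genes. None was called, with adjusted p between 0.806 and 0.994, while 12 genes or 0.11% of all genes tested were. At an unadjusted p under 0.05, limma returned 8 of the 33 genes, against 5.61% of all genes tested. Of these 8, 7 were higher in KO (2.54% of all genes) and 1, mt-Tl2, was lower (3.07% of all genes). The fitted log2 fold change of KO over WT was above 0 for 26 of 33 genes, against 41.3% of all genes. Every KO library exceeded every WT library for 7 of 33 genes, against 4.28% of all genes, and every KO library was below every WT library for none, against 6.88%. The 7 genes were mt-Co2, mt-Atp6, mt-Co3, mt-Tl1, mt-Tw, mt-Tc and mt-Ts1. The genes are transcribed together and are not independent of each other.

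**Figure D1:**
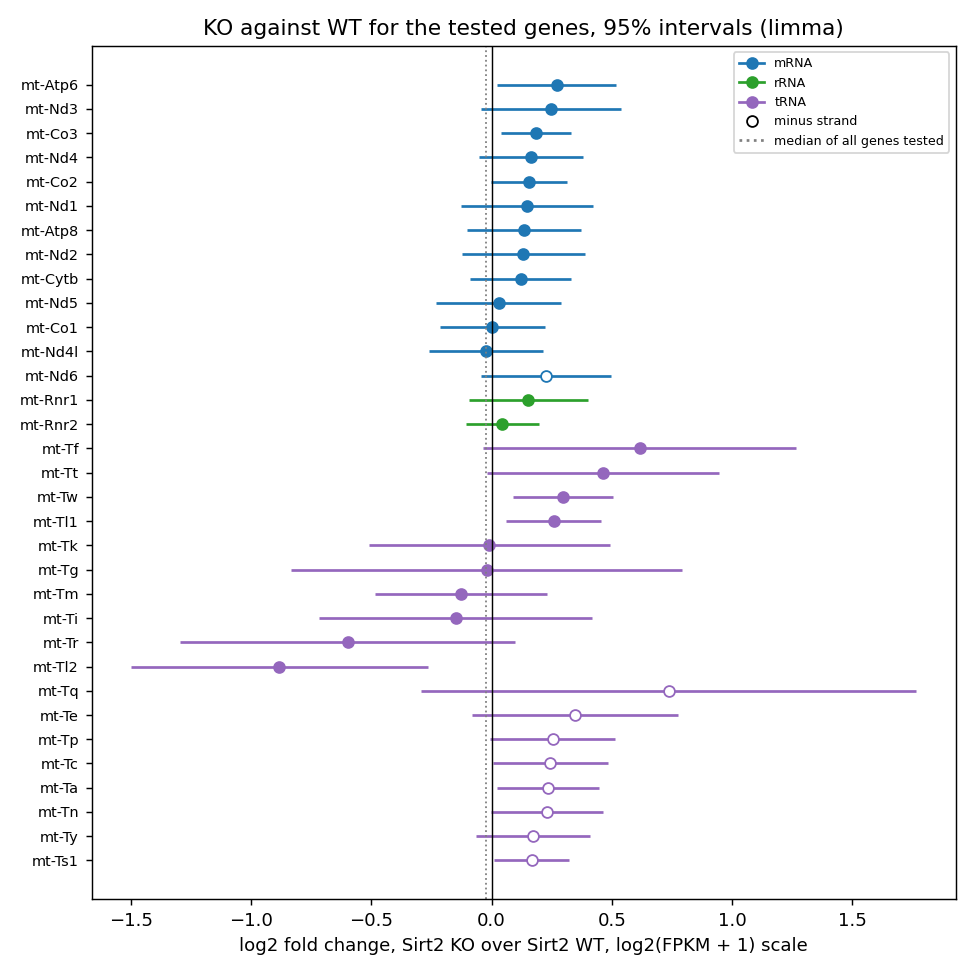
Fitted log2 fold change of Sirt2 KO over Sirt2 WT on the log2(FPKM + 1) scale (x axis) for the 33 tested genes (rows), with 95% intervals from limma over 3 libraries per group; open circles are minus-strand genes and the dotted line is the median of all genes tested. The mRNA values lie between -0.02 and 0.27 with intervals much narrower than those of the low tRNA genes.

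Leaving out KO replicate 3 changed the calls. That library was singled out from these same values, as the KO library nearest to WT. Its removal tends to widen the difference between groups and to narrow the KO spread. Genes that pass without it are therefore a description and no independent support for a difference. At an unadjusted p under 0.05, limma then returned 19 of 33 mitochondrial genes, against 32.5% of all genes. Leaving out the other libraries in turn returned between 2 of 33, without WT replicate 3, and 8, without WT replicate 1. The share of all genes was 3.46% and 2.81% in these 2 fits, and at most 4.52%, without KO replicate 2, where 4 mitochondrial genes were returned. The log2 fold change was above 0 for 26 of 33 without KO replicate 3, against 41.7% of all genes. Without that library 5 of 33 mitochondrial genes passed at an adjusted p under 0.05 in limma, 4 of them higher and 1 lower in KO, against 10.1% of all genes (4.0% higher and 6.14% lower). Both remaining KO libraries exceeded every WT library for 17 of 33 genes, made up of 6 mRNA, 1 rRNA and 10 tRNA genes, against 18.9% of all genes. The 5 genes that passed were mt-Nd3, mt-Te, mt-Tl2, mt-Tt and mt-Tf, and their values are given with their classes below.

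The 13 mRNA genes were among the most abundant in these cells. Their mean over all 6 libraries placed them between rank 2, mt-Co1, and rank 138, mt-Nd3, of all genes by FPKM. Their median log2 fold change was 0.15, beside -0.03 for all genes tested, and 12 of 13 were above 0 with mt-Nd4l as the exception. That count is 13 when libraries are scaled to a common median and 11 when they are scaled to the sum of nuclear genes. The sum of nuclear genes includes the near-identical chromosome 1 copies described further on, whose own sum was higher in every KO library. Without KO replicate 2 the count above 0 was 11 and the median was 0.05. Without KO replicate 3 it was 10, with mt-Co1 and mt-Nd5 also below 0, and the median was 0.19.

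The 3 mRNAs of complex IV, cytochrome c oxidase, encode its catalytic core. mt-Co1, the subunit that holds the site of oxygen reduction, had 2739, 2976 and 3399 FPKM in KO libraries and 3172, 2905 and 2987 FPKM in WT libraries. It was lowest in KO replicate 1 and highest in KO replicate 3, with WT between them, and its log2 fold change was 0.00 (95% interval -0.22 to 0.22). mt-Co2, which carries the copper site that accepts electrons from cytochrome c, had 1369, 1514 and 1419 FPKM in KO and 1316, 1302 and 1240.3 FPKM in WT. mt-Co3, a core subunit without a redox centre, had 1535, 1645 and 1585 FPKM in KO and 1429, 1371 and 1393 FPKM in WT. For mt-Co2 and mt-Co3 all KO libraries were higher than all WT libraries, by 0.16 (SE 0.07) and 0.18 (SE 0.06) on the log2 scale. The limma adjusted p was 0.843 for both. The ratio of mt-Co3 to mt-Co1 was 0.560, 0.553 and 0.466 in KO and 0.451, 0.472 and 0.466 in WT, so KO replicate 3 lay among the WT libraries and the other KO libraries above them.

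Both mRNAs of complex V encode membrane subunits of ATP synthase. mt-Atp6, the subunit of the proton channel, had 2025, 2477 and 1905 FPKM in KO libraries and 1858, 1710.5 and 1709.9 FPKM in WT libraries. Every KO value was above every WT value, and the log2 fold change of 0.27 (SE 0.11, adjusted p = 0.843 in limma) became 0.16 without KO replicate 2 and 0.35 without KO replicate 3. mt-Atp8, a short subunit of the peripheral stalk read from the same bicistronic mRNA, had 1916, 2469 and 2256 FPKM in KO and 2098, 1908 and 2012 FPKM in WT. KO replicates 2 and 3 were above WT and KO replicate 1 was within it, at a log2 fold change of 0.14 (SE 0.10). The ratio of mt-Atp6 to mt-Atp8 ran from 0.844 to 1.06 in KO and from 0.850 to 0.896 in WT, with overlap.

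Complex I, NADH dehydrogenase, takes 7 subunits from the mitochondrial genome, all in its membrane arm. mt-Nd1, at the ubiquinone site, had 1714, 2138 and 1572 FPKM in KO libraries and 1729, 1558 and 1568 FPKM in WT libraries. mt-Nd2, a proton-pumping subunit, had 738, 931 and 703 FPKM in KO and 755, 691 and 702 FPKM in WT. For both, KO replicate 2 was alone above the WT libraries. mt-Nd4, another pumping subunit, had 509.98, 584 and 477 FPKM in KO and 505, 439 and 455 FPKM in WT, with KO replicates 1 and 2 above WT and KO replicate 3 within it. mt-Nd4l, which shares an mRNA with mt-Nd4, had 356, 441 and 440.35 FPKM in KO and 453, 404 and 396 FPKM in WT. Here KO replicate 1 was the lowest of all 6 libraries. mt-Nd5, the subunit at the far end of the arm, had 353, 462 and 451 FPKM in KO and 439.96, 395 and 398 FPKM in WT. It too was lowest in KO replicate 1, while the other KO libraries were above WT.

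mt-Nd3, a small complex I subunit with a flexible loop, had 395, 396 and 287 FPKM in KO libraries and 297, 296 and 307 FPKM in WT libraries. KO replicates 1 and 2 agreed closely and lay above WT, while KO replicate 3 was below all WT libraries. With all 6 libraries limma gave a log2 fold change of 0.25 (SE 0.13) at an adjusted p of 0.843. Without KO replicate 3 it gave a log2 fold change of 0.40 (SE 0.05) at an adjusted p of 0.00879, and mt-Nd3 was the only mRNA gene to pass then. mt-Nd6, the one mRNA of the minus strand, had 398, 449.7 and 339.95 FPKM in KO and 374, 327 and 310.2 FPKM in WT. KO replicates 1 and 2 were above WT and KO replicate 3 was within it, at a log2 fold change of 0.23 (SE 0.12). The ratio of mt-Nd6 to mt-Nd5, the genes that overlap on opposite strands, was 1.13, 0.974 and 0.754 in KO and 0.850, 0.829 and 0.779 in WT. The same KO libraries were high, and KO replicate 3 was the lowest of the 6.

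mt-Cytb, the only mitochondrially encoded subunit of complex III and the site where ubiquinol is oxidised, had 1215, 1439 and 1177 FPKM in KO libraries and 1226, 1133 and 1154 FPKM in WT libraries. Only KO replicate 2 lay above WT, and the log2 fold change was 0.12 (SE 0.09). Summed over the mRNAs of a complex, no complex separated the groups. Complex I mRNAs summed to 4464, 5401 and 4271 FPKM in KO and 4552, 4109 and 4137 FPKM in WT, complex IV mRNAs to 5642, 6135 and 6403 FPKM in KO and 5918, 5578 and 5620.3 FPKM in WT. Complex V mRNAs summed to 3941, 4946 and 4161 FPKM in KO and 3956, 3619 and 3722 FPKM in WT, where KO replicate 1 lay just under WT replicate 1.

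**Figure D2:**
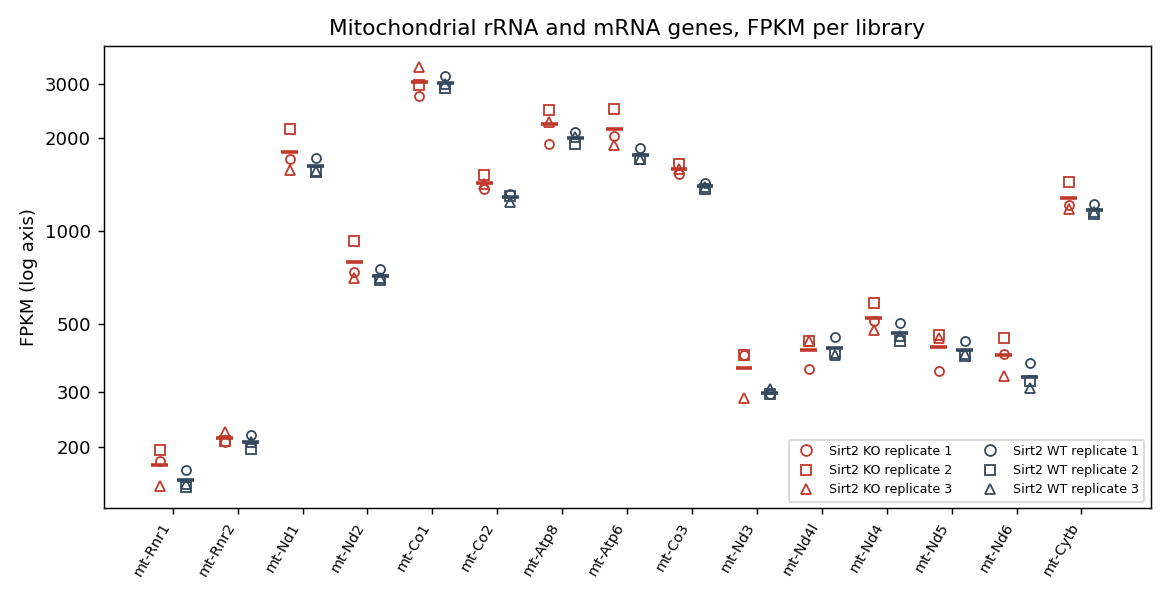
FPKM (log axis) of the 2 rRNA and 13 mRNA genes in genome order, with KO libraries in red left of WT libraries in blue, a marker per replicate and a bar at each group mean. The square of KO replicate 2 is the highest of 6 values in 11 of the 13 mRNA genes, while the WT libraries lie close together.

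The KO libraries differed from each other more than the WT libraries did. KO replicate 2 was the highest of the 6 libraries in 11 of 13 mRNA genes. KO replicate 1 was above all WT libraries in 6 mRNA genes and below all of them in 3, and KO replicate 3 was above in 6 and below in 1. Set against the WT mean of each gene on the log2 scale, the median deviation of the mRNA genes was 0.08, 0.30 and 0.08 in KO replicates 1 to 3 and 0.08, -0.05 and -0.03 in WT replicates 1 to 3. WT replicate 1 thus deviated as much as KO replicates 1 and 3. The deviations in KO replicates 1 and 3 ran in opposite directions at mt-Co1, mt-Atp8, mt-Nd3, mt-Nd4l and mt-Nd5, and also at mt-Nd1, mt-Nd2 and mt-Rnr1.

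**Figure D3:**
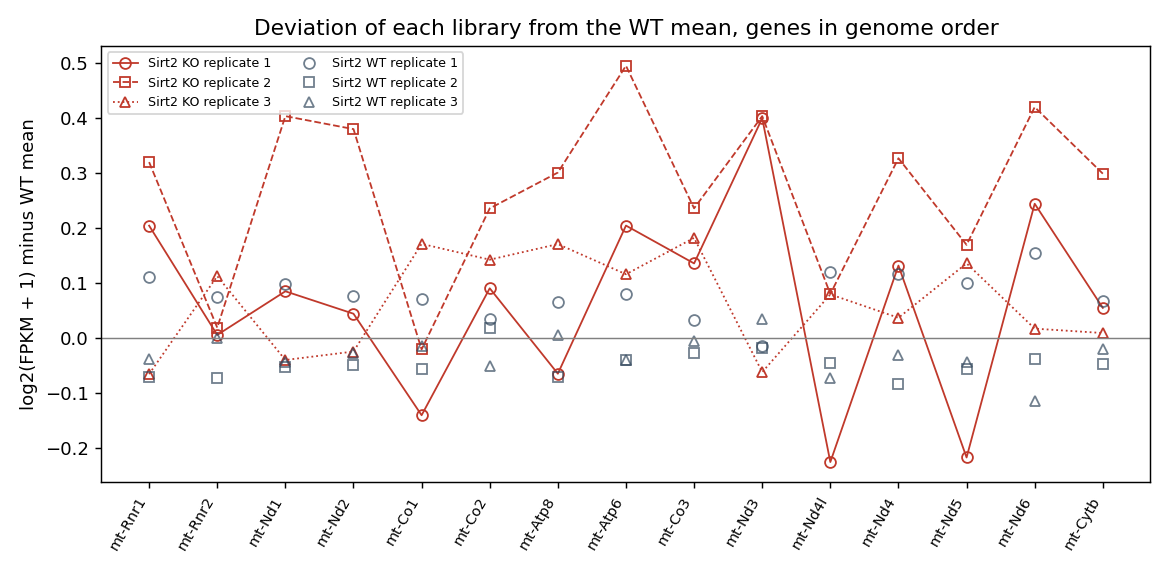
Difference in log2(FPKM + 1) between each library and the WT mean (y axis) for the rRNA and mRNA genes in genome order; red lines are the KO replicates and blue markers the WT replicates. KO replicate 2 runs above the WT markers at most genes, and KO replicates 1 and 3 cross at mt-Co1, mt-Nd3, mt-Nd4l and mt-Nd5.

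In cells the mitochondrial rRNAs are known to be made in excess of the mRNAs, but here their FPKM was below that of every mRNA gene. mt-Rnr1, the 12S rRNA of the small ribosomal subunit, had 179.5, 195 and 149 FPKM in KO libraries and 168, 148 and 152 FPKM in WT libraries. mt-Rnr2, the 16S rRNA of the large subunit, had 207, 209 and 223 FPKM in KO and 218, 196 and 207 FPKM in WT. KO replicates 1 and 2 were above WT for mt-Rnr1, and KO replicate 3 was so for mt-Rnr2. The log2 fold changes were 0.15 (SE 0.11) and 0.05 (SE 0.07), with limma adjusted p of 0.866 and 0.907. Without KO replicate 3 they were 0.26 and 0.01, with limma adjusted p of 0.0563 and 0.906. The summed rRNA level was 0.0253, 0.0225 and 0.0232 of the summed mRNA level in KO and 0.0246, 0.0239 and 0.0245 in WT. The library preparation is given as standard Illumina protocols, and whether poly(A) selection or rRNA depletion was used is not stated, so rRNA and mRNA levels are not comparable as amounts in the cell.

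The tRNA genes summed to 718, 765 and 667 FPKM in KO libraries and 654, 602 and 581 FPKM in WT libraries. Every KO sum was above every WT sum, a log2 ratio of the means of 0.23, with KO replicate 3 and WT replicate 1 nearest to each other. The tested tRNA genes had a median log2 fold change of 0.23, and 12 of 18 were above 0; without KO replicate 3 the median was 0.27 and 14 of 18 were. These genes are 59 to 75 bases long, and reads from mature tRNAs cannot be told apart from reads of uncut precursors that run through them. Whether counting used strand is not given either, so a tRNA value may include reads of the opposite strand.

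On the minus strand all 8 tRNA genes were tested and all 8 had a log2 fold change above 0, with a median of 0.24. mt-Ts1, a serine tRNA whose gene overlaps the end of mt-Co1 on the other strand by 3 bases, was the highest of them. It had 187, 197 and 189.96 FPKM in KO libraries and 177, 158 and 177 FPKM in WT libraries, with no overlap and a log2 fold change of 0.17 (SE 0.07, adjusted p = 0.843 in limma). mt-Tc, the cysteine tRNA, had 34.8, 28.9 and 27.3 FPKM in KO and 25.3, 27.2 and 23.6 FPKM in WT, so the groups were separate by a narrow margin, at a log2 fold change of 0.24 (SE 0.10, adjusted p = 0.843 in limma). mt-Te, the glutamate tRNA beside mt-Nd6, had 79.1, 89.1 and 54.2 FPKM in KO and 66.7, 53.8 and 51.2 FPKM in WT. KO replicates 1 and 2 were above WT and KO replicate 3 was within it. The log2 fold change of mt-Te was 0.35 (SE 0.18, adjusted p = 0.843 in limma) with all libraries and 0.55 (SE 0.11, adjusted p = 0.0306 in limma) without KO replicate 3.

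The other minus-strand tRNA genes overlapped between groups. mt-Tp, for proline, averaged 64.0 ± 2.74 FPKM in KO and 53.9 ± 8.73 FPKM in WT (SD, n = 3 each). mt-Ta, for alanine, averaged 52.9 ± 3.34 FPKM in KO and 44.9 ± 4.93 FPKM in WT, and its KO replicate 3 at 50.4 FPKM lay just under WT replicate 2 at 50.5 FPKM. mt-Tn, for asparagine, averaged 47.3 ± 3.55 FPKM in KO and 40.3 ± 4.93 FPKM in WT. mt-Ta, mt-Tn, mt-Tc and mt-Ty lie next to each other on the chromosome. mt-Ty, for tyrosine, averaged 18.3 ± 1.42 FPKM in KO and 16.2 ± 1.92 FPKM in WT. mt-Tq, for glutamine, had 2.47, 3.14 and 2.76 FPKM in KO and 2.54, 2.29 and 0 FPKM in WT, and its large log2 fold change of 0.74 (SE 0.44) rests on the library in which it is listed at 0.

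The plus strand holds 14 tRNA genes, of which 10 were tested. Their median log2 fold change was -0.02, and 4 of 10 were above 0, beside 8 of 8 on the minus strand. In the fit without KO replicate 3 the median was 0.22 with 6 of 10 above 0 on the plus strand and 0.28 with 8 of 8 on the minus strand. Scaling to a common median also put 6 of 10 above 0, at a median of 0.02. The difference between strands is a description without a test, and most plus-strand tRNA genes had few FPKM. The abundant ones were mt-Tl1 and mt-Tw. mt-Tl1, a leucine tRNA directly between mt-Rnr2 and mt-Nd1, had 149, 176 and 157 FPKM in KO libraries and 144, 133 and 126 FPKM in WT libraries. mt-Tw, for tryptophan, had 34.2, 33.2 and 32.4 FPKM in KO and 28.8, 28.7 and 23.4 FPKM in WT. Both had every KO library above every WT library, on the log2 scale by 0.26 (SE 0.08, adjusted p = 0.843 in limma) and 0.30 (SE 0.09, adjusted p = 0.806 in limma). The ratio of mt-Tl1 to the adjoining mt-Nd1 was 0.0869, 0.0826 and 0.09996 in KO and 0.0833, 0.0851 and 0.0804 in WT, with overlap.

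Among lower plus-strand tRNA genes, mt-Tt, for threonine, had 13.2, 14.5 and 8.79 FPKM in KO libraries and 11.0, 7.63 and 6.97 FPKM in WT libraries. mt-Tf, for phenylalanine and first after the heavy strand promoter, had 4.46, 3.71 and 1.44 FPKM in KO and 1.85, 1.37 and 1.58 FPKM in WT. In both, KO replicates 1 and 2 were above WT and KO replicate 3 was within it. Their log2 fold changes were 0.46 (SE 0.21) and 0.62 (SE 0.28) with all libraries, each at a limma adjusted p of 0.843. Without KO replicate 3 they were 0.66 (SE 0.16, adjusted p = 0.0473 in limma) for mt-Tt and 0.97 (SE 0.12, adjusted p = 0.00905 in limma) for mt-Tf. mt-Tl2, the other leucine tRNA, went the other way, with 0.712, 0.322 and 1.45 FPKM in KO and 2.96, 2.67 and 1.40 FPKM in WT. Only KO replicate 3 reached the range of WT. Its log2 fold change was -0.88 (SE 0.26, adjusted p = 0.806 in limma) with all libraries and -1.12 (SE 0.23, adjusted p = 0.0303 in limma) without that one.

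The remaining tested tRNA genes of the plus strand overlapped between groups. mt-Tg, for glycine, averaged 7.77 ± 3.83 FPKM in KO and 7.41 ± 2.13 FPKM in WT (SD, n = 3 each). mt-Tk, for lysine, averaged 6.36 ± 1.66 FPKM in KO and 6.44 ± 1.92 FPKM in WT. The initiator and elongator methionine tRNA, mt-Tm, averaged 5.87 ± 0.947 FPKM in KO and 6.55 ± 1.45 FPKM in WT. mt-Ti, for isoleucine, and mt-Tr, for arginine, averaged 1.73 ± 0.698 and 1.48 ± 0.896 FPKM in KO, against 2.05 ± 0.828 and 2.72 ± 1.12 FPKM in WT. The 4 untested genes, mt-Tv (valine), mt-Td (aspartate), mt-Th (histidine) and mt-Ts2 (the second serine tRNA), had means between 0.278 and 0.784 FPKM in KO and between 0.756 and 1.03 FPKM in WT. mt-Th and mt-Ts2 were listed at 0 in KO replicate 2.

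**Figure D4:**
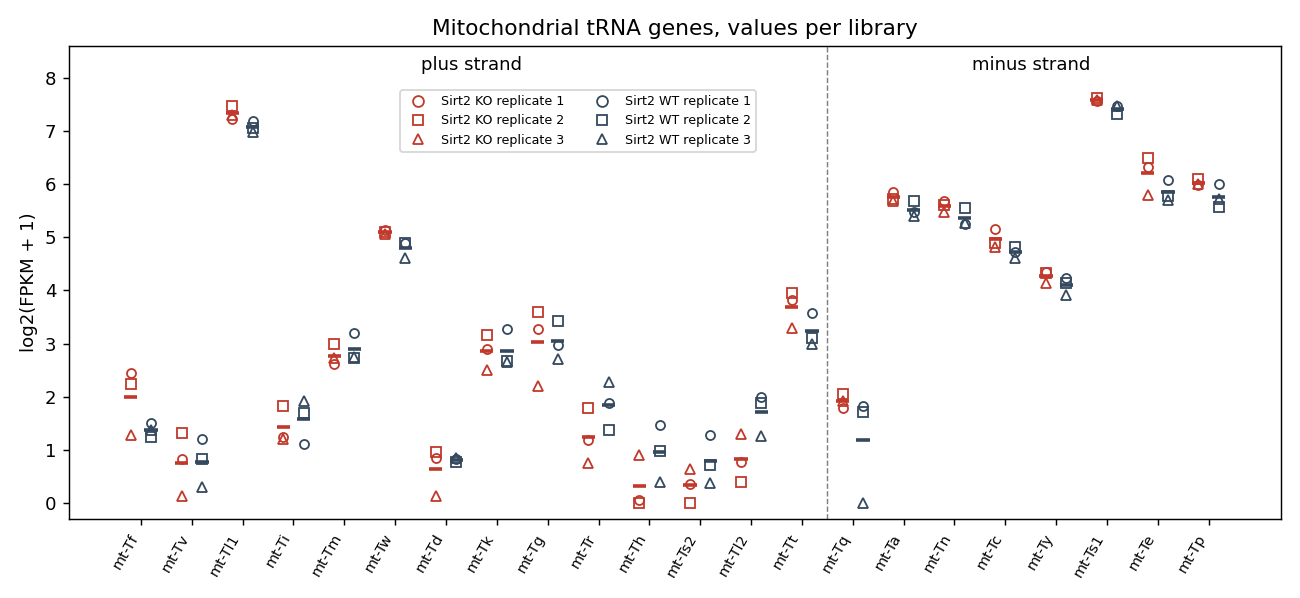
log2(FPKM + 1) of the 22 tRNA genes in genome order within each strand, with KO libraries in red left of WT libraries in blue and bars at the group means. Of the plus-strand genes only mt-Tl1 and mt-Tw stand above the others, while all minus-strand genes except mt-Tq have group means above 4.

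Summed by strand, minus-strand tRNA genes had 492, 504 and 448 FPKM in KO libraries and 433, 401 and 396 FPKM in WT libraries, with no overlap. Plus-strand tRNA genes had 226, 262 and 219 FPKM in KO and 222, 201 and 184 FPKM in WT, with overlap through KO replicate 3. The ratio of minus to plus was 2.18, 1.93 and 2.05 in KO and 1.95, 1.999 and 2.15 in WT. The balance between strands therefore overlapped between groups although the minus-strand sum did not. Most of the plus-strand sum was mt-Tl1, at 149, 176 and 157 FPKM in KO and 144, 133 and 126 FPKM in WT. These sums follow the annotated strand of each gene and may include reads of the other strand, since the strand setting is not given. For mRNAs, mt-Nd6 stood at 0.0268, 0.0257 and 0.0217 of the summed plus-strand mRNA level in KO and at 0.0245, 0.0232 and 0.0217 in WT, with overlap.

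Part of the mitochondrial sequence also exists as near-identical nuclear copies, and the gene table lists these apart. A search of the reference transcripts with BLAST found 7 such copies on chromosome 1 at 99% identity or more, 5 of them full-length. The full-length copies carried almost the same FPKM as the mitochondrial gene, at 106% for Gm10925 and mt-Atp6, 99.5% for Gm28661 and mt-Co2, 99.9% for Gm28437 and mt-Co3, 98.7% for Gm28438 and mt-Nd3, and 101% for Gm10222 and mt-Nd4l. The partial copies stood at 26.2% for Gm29216 and mt-Co1 and 64.5% for Gm28439 and mt-Nd4. How reads with several matches were assigned is not stated, so RNA of these mitochondrial genes and of their copies cannot be told apart. Levels within the copied stretch are not directly comparable with levels of mt-Nd1, mt-Nd2, mt-Nd5, mt-Nd6 or mt-Cytb, for which the search found no such copy. Copies outside annotated transcripts were not sought. mt-Co2, mt-Atp6 and mt-Co3, the mRNA genes with every KO value above every WT value, all have a full-length copy. mt-Nd3 and mt-Nd4l have one as well, and their values overlapped between groups. The 7 copies summed to 6928, 7838 and 6865 FPKM in KO libraries and 6616, 6231 and 6162 FPKM in WT libraries, with no overlap. Full-length copies were also added to their genes. Log2 fold changes were then 0.27 for mt-Atp6, 0.16 for mt-Co2, 0.19 for mt-Co3, 0.25 for mt-Nd3 and -0.02 for mt-Nd4l. No mitochondrial gene was called. As the copies carry almost the same FPKM as their genes, adding them could hardly change a fold change.

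**Figure D5:**
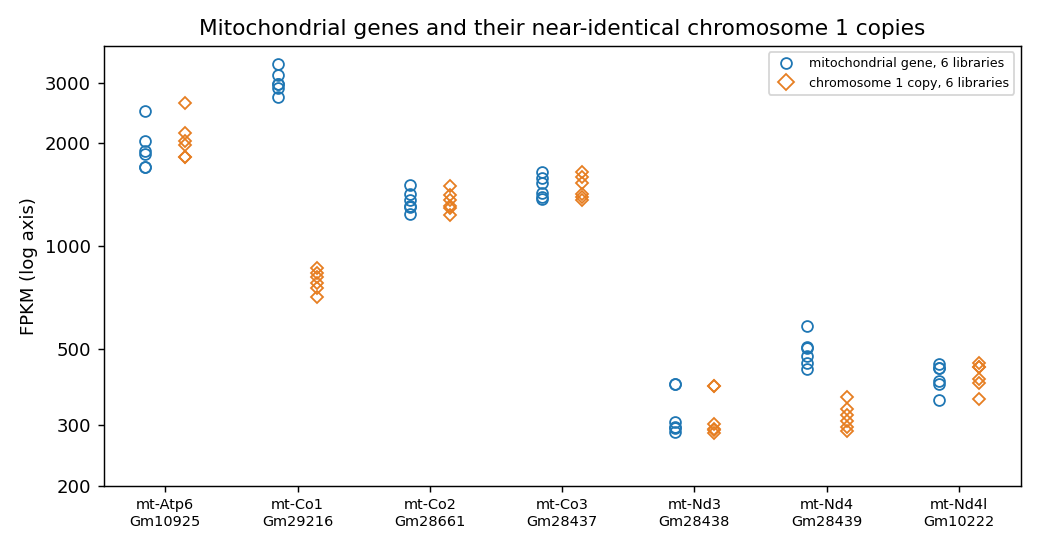
FPKM (log axis) of 7 mitochondrial genes (blue circles) and of their near-identical chromosome 1 copies (orange diamonds), a marker for each of the 6 libraries. The full-length copies of mt-Atp6, mt-Co2, mt-Co3, mt-Nd3 and mt-Nd4l lie level with their genes, and the partial copies of mt-Co1 and mt-Nd4 lie below.

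The authors' deposited tables, whose test is not named, marked none of the 37 genes as significant. In the authors' deposited gene table the q-value was 0.419 for mt-Co3, 0.565 for mt-Atp6 and 0.887 for mt-Co2. In the authors' deposited transcript table, which holds the same FPKM for these single-transcript genes, the q-value was 0.00022 for mt-Co3, 0.0318 for mt-Co2 and 0.163 for mt-Atp6. The same limma comparison over the transcript table called 8 of 19184 transcripts and none of the 33 mitochondrial ones. With the same FPKM, the log2 fold changes of the mitochondrial transcripts could not differ from those of the genes.

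The nuclear genes that transcribe, copy and process mitochondrial nucleic acids gave no call with all 6 libraries. Of the transcription list, 16 genes were tested with a median log2 fold change of -0.00, beside -0.03 for all genes. Tfb2m, the initiation factor that opens the promoter, had 13.9, 15.4 and 14.9 FPKM in KO libraries and 15.9, 16.1 and 15.97 FPKM in WT libraries, lower in all KO at a log2 fold change of -0.11 (limma adjusted p = 0.844). Mterf3 and Mterf2, members of a family that binds mitochondrial DNA or RNA, averaged 3.90 ± 0.157 and 5.17 ± 0.262 FPKM in KO, against 4.45 ± 0.339 and 6.30 ± 0.917 FPKM in WT (SD, n = 3 each). The coactivator Pprc1 averaged 24.3 ± 0.683 FPKM in KO and 26.4 ± 1.31 FPKM in WT. Polrmt and Tfam, the polymerase and the packaging factor, had log2 fold changes of 0.08 (SE 0.12) and -0.01 (SE 0.06).

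Of the replication list, 15 genes were tested, with a median of -0.03. Polg, the mitochondrial DNA polymerase, had 9.24, 10.2 and 10.01 FPKM in KO libraries and 11.3, 10.7 and 11.4 FPKM in WT libraries, lower in all KO at a log2 fold change of -0.17 (SE 0.07, adjusted p = 0.843 in limma). The topoisomerase Top3a averaged 8.02 ± 0.574 FPKM in KO and 8.91 ± 0.477 FPKM in WT. Rnaseh1, which removes RNA primers, averaged 8.28 ± 0.592 FPKM in KO and 8.98 ± 0.863 FPKM in WT, and the nuclease Dna2 averaged 5.89 ± 0.428 FPKM in KO and 6.33 ± 0.425 FPKM in WT (SD, n = 3 each).

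The RNA processing and decay list had 23 tested genes with a median of -0.03. Hsd17b10, a subunit of the enzyme that cuts the front ends of tRNAs, had 43.4, 45.6 and 48.0 FPKM in KO libraries and 39.3, 40.8 and 43.4 FPKM in WT libraries, with a narrow overlap. Angel2 averaged 10.7 ± 0.431 FPKM in KO and 11.8 ± 0.157 FPKM in WT (SD, n = 3 each) and was lower in every KO library. Fastk, which is known to maintain mt-Nd6 mRNA, averaged 9.94 ± 0.791 FPKM in KO and 10.9 ± 0.275 FPKM in WT, and its relative Fastkd3 averaged 7.30 ± 0.361 FPKM in KO and 7.95 ± 0.0415 FPKM in WT. In the rRNA modification list, 13 genes were tested with a median of 0.02. Mrm2, a 16S rRNA methyltransferase, had 7.05, 7.61 and 5.07 FPKM in KO and 4.85, 5.29 and 6.03 FPKM in WT. Mrm3, another methyltransferase, Eral1, a chaperone of the 12S rRNA, and the GTPase Noa1 had log2 fold changes of 0.14, 0.10 and 0.08. Without KO replicate 3, Slirp of the processing list and Mrm2 passed in limma, both higher in KO, and no other gene of these 4 lists did, while 10.1% of all genes passed and 4.0% did so in that direction.

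Nuclear subunits that share complexes I, III, IV and V with the mitochondrial products were tested for 36 genes. The median log2 fold change was 0.08, 33 of 36 were above 0, against 41.3% of all genes, and none was called. With scaling to the sum of nuclear genes 26 of them were above 0, against 34.1% of all genes. Without KO replicate 2 the count was 20, against 41.8% of all genes, with a median of 0.01. With KO replicate 3 left out it was 34, against 41.7% of all genes, with a median of 0.16. Cox6c, a small complex IV subunit, had 27.7, 25.6 and 21.8 FPKM in KO libraries and 20.9, 22.4 and 20.7 FPKM in WT libraries. Cox7a2, another, had 98.0, 109.65 and 72.9 FPKM in KO and 69.4, 78.5 and 75.7 FPKM in WT. Both overlapped through KO replicate 3. Uqcrh of complex III had 73.7, 80.1 and 59.1 FPKM in KO and 59.0, 58.4 and 63.6 FPKM in WT. Atp5o of complex V had 73.0, 77.1 and 59.5 FPKM in KO and 59.2, 62.9 and 63.6 FPKM in WT. In these 2 as well, KO replicates 1 and 2 were above WT and KO replicate 3 was within it. Without KO replicate 3, 11 of the 36 passed in limma, all higher in KO, against 4.0% of all genes in that direction.

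Cdk5rap1, the enzyme that modifies mt-Tw, mt-Ty, mt-Tf and mt-Ts1 beside the anticodon, was looked up by name with earlier results of these data known. It had 8.79, 9.08 and 9.74 FPKM in KO libraries and 3.92, 3.83 and 4.04 FPKM in WT libraries. All KO libraries were far above all WT libraries, KO replicate 3 included, and the gene rose by 1.05 on the log2 scale (SE 0.08, adjusted p = 0.00640 in limma). When a library was left out the log2 fold change stayed between 1.01 and 1.08, but the call was lost without KO replicate 1 (adjusted p = 0.0688 in limma) and without WT replicate 2 (adjusted p = 0.0502 in limma). The adjusted p ran from 0.002375 to 0.0688 in limma over all alternatives. Its 4 substrate genes had log2 fold changes of 0.30, 0.17, 0.62 and 0.17 in that order. None of them was called with all 6 libraries, and mt-Tf passed without KO replicate 3 as given above. The median over all 18 tested tRNA genes was 0.23, with 12 of 18 above 0, so values of this size were not particular to the substrates. FPKM gives the level of tRNAs and not their modification.

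Markers of other cell types were checked by list. The myeloid markers summed to 12.6, 13.1 and 9.61 FPKM in KO libraries and 3.59, 3.33 and 2.97 FPKM in WT libraries, with 6 of 11 higher in all KO. Lyz2 was the largest part of that sum in every KO library, at 8.31, 9.44 and 4.24 FPKM, but not in WT, at 1.38, 1.03 and 0.782 FPKM. Cd68 was larger there, at 1.64, 1.70 and 1.44 FPKM. Cd68, Csf1r, Itgam, Cd14 and Itgax were also higher in all KO. Of these, Cd14 had 0.881, 1.09 and 1.49 FPKM in KO and 0.121, 0.0769 and 0.0245 FPKM in WT. Adgre1, Fcgr3, Mpo, S100a8 and S100a9 overlapped between groups. S100a8 and S100a9 were listed at 0 in every WT library and in KO replicate 2, and S100a9 also in KO replicate 3. B cell markers summed to 23.3, 22.9 and 27.7 FPKM in KO and 19.7, 19.8 and 19.1 FPKM in WT, with 4 of 8 higher in all KO. Nearly all of it was Ighm, at 22.0, 21.3 and 25.3 FPKM in KO and 18.5, 18.6 and 18.3 FPKM in WT. CD8 T and NK cell markers summed to 6.67, 6.94 and 9.18 FPKM in KO and 4.82, 6.17 and 5.16 FPKM in WT, with 3 of 6 higher in all KO. Erythroid and stromal markers summed to 2.73, 2.34 and 4.51 FPKM in KO and 3.05, 3.13 and 4.98 FPKM in WT, with overlap and none of 9 higher in all KO. The share of all tested genes higher in all KO was 4.28%, but most of these markers lay under the 1 FPKM minimum behind that share. The Th17 and CD4 markers were present in all libraries, with 2 of 12, Trac and Il1r1, higher in all KO. Their sum of 640, 809 and 727 FPKM in KO and 794, 799 and 814 FPKM in WT followed Il17f, at 202, 350.2 and 244 FPKM in KO and 329, 343 and 357 FPKM in WT. Nuclear retained RNAs, a rough measure of nuclear RNA in a library, summed to 6.52, 5.27 and 8.56 FPKM in KO and 11.3, 9.17 and 9.63 FPKM in WT. Of the 5 listed, Malat1 and Mir17hg were lower in all KO, against 6.88% of all tested genes. Neat1 overlapped between groups, as did Kcnq1ot1 and Meg3, which lay under the 1 FPKM minimum. The part of these marker and nuclear RNA differences in the mitochondrial values was not tested.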

How the data were processed

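RNA was sequenced in bulk from 3 Sirt2 KO and 3 Sirt2 WT libraries, grouped by their titles. The authors deposited FPKM per gene and per transcript, per the file headers. The deposited fold column is a ratio of KO over WT, its log2 is deposited beside it, and a p-value and q-value come from a test that is not named. Tools listed in the submitters' processing notes, with neither role nor version, are HISAT2, StringTie, cutadapt, FastQC, edgeR and DESeq2, and the build listed is mm9. All 37 genes nevertheless have the GENCODE M21 (GRCm38) start, end and strand, so coordinates are GRCm38. Library preparation, strand setting and handling of reads with several matches are not given in the sources used here.

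Depth is unknown: at most 5.0% of low values fell on whole multiples of a common step (tolerance 0.02), so no reads were recovered and no counting interval is given. FPKM is relative to each library's own total.

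Genes that reached 1 FPKM in 3 libraries or more were fitted as log2(FPKM + 1) with limma 3.58.1 (R 4.3.3), a mean trend and Benjamini-Hochberg adjustment over all genes tested. Fold changes on this scale understate changes of low genes. The fit was tested on simulated data in which every change was larger than the log2 fold changes of the mRNA genes here. That test therefore cannot tell how often changes as small as these would be called. Nuclear copies were sought with BLAST 2.17.0 at 90% identity over at least 50 bases, and called near-identical at 99%. Figures were drawn with matplotlib 3.10.9.

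Alternatives were a replicate block, each library left out in turn, scaling to a common median or to the sum of nuclear genes, 0.1 as pseudocount, a minimum of 5 FPKM, no minimum, and a fit without the trend. The transcript table and the added copies were chosen after seeing the data. The genes and lists were chosen with earlier results of these data known. All mitochondrial genes are named, and of each nuclear list any called genes or else up to 4 of smallest unadjusted p; Polrmt, Tfam and Slirp were named outside that rule, after their values were seen.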

Additional observations from a re-analysis of the deposited data

How the results depend on the processing

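No mitochondrial gene was called by limma under any alternative that kept all 6 libraries. None was called in the transcript table or with copies added either, but these 2 fits are not independent checks. The transcript table holds the same FPKM, and the full-length copies carry almost the same FPKM as their genes. Genes called in the whole table numbered 12, against 5 with a filter at 5 FPKM, and 0 to 1088 when a library was left out. Mitochondrial genes called then ranged from 0 to 5 and genes of the nuclear lists from 0 to 13, in each case with the highest count without KO replicate 3; the cause was not tested. Log2 fold changes near 0 changed sign. With scaling to a common median, which moved the median of all genes to 0.01 against -0.03, mt-Tk was 0.0277, mt-Tg 0.0183 and mt-Nd4l 0.0197. With scaling to the sum of nuclear genes mt-Co1 was -0.0231. Leaving out a library gave -0.0735 to 0.0793 for mt-Nd4l, -0.0810 to 0.0748 for mt-Co1, -0.0411 to 0.152 for mt-Nd5, -0.165 to 0.193 for mt-Tk, -0.308 to 0.391 for mt-Tg, -0.235 to 0.0252 for mt-Tm and -0.382 to 0.0245 for mt-Ti. The direction of the other 26 tested genes was the same in all settings run. Same-numbered KO and WT libraries did not deviate together (correlations across genes of 0.00668, -0.017 and -0.0756). Correlations of differently numbered libraries ran from -0.107 to 0.12. The labels do not state whether the numbers pair the libraries, and these correlations cannot decide it, since a pairing need not leave a shared deviation. With the replicate block, 13 genes and no mitochondrial gene were called, and the mRNA median stayed at 0.149.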
